A study of Schmidtea mediterranea with 36 samples.

Results

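Tail fragments of *control(RNAi)* planarians at 24 h post-amputation (HPA) were compared with the same kind of fragment at 6 HPA, using 6 of the 36 libraries of the series, 3 at each time. The animals were asexual *Schmidtea mediterranea* of strain CIW4 that had received 9 feedings of *GFP* dsRNA, a sequence the planarian genome lacks, and were then amputated below the pharynx. All 6 libraries therefore came from dsRNA-fed animals, and a library held polyA-selected RNA of whole fragments from replicates that the study calls biological. The number of fragments per library is not given in the sources used here. For a comparison made at the end, the 6 libraries of *alx-3(RNAi)* tail fragments at 24 and 6 HPA were also used, from animals fed 9 times with dsRNA against the homeobox gene *alx-3*. Levels over time also draw on *control(RNAi)* tail fragments at 0.5, 48 and 72 HPA and on intact, uninjured *control(RNAi)* animals, 3 libraries each. These further fragments, but not the intact animals, also entered 1 alternative fit. Expression is given as CPM, the deposited normalized count of a transcript divided by the total of its library and multiplied by 1000000, and fold changes are 24 HPA over 6 HPA on the log2(CPM + 0.1) scale. CPM is not divided by transcript length, so levels of different genes were not compared.

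A planarian tail fragment keeps its posterior tissue and has to regrow a head from an anterior-facing wound. In the first hours, differentiated cells and stem cells near a cut switch on wound-induced genes, and later the stem cells, called neoblasts, divide and give rise to progenitors of the missing tissues. Wnt signalling sets the head-to-tail axis, with Wnt ligands produced in the tail and secreted Wnt inhibitors such as *notum* and *sfrp-1* at the head. Neoblasts are recognised by *piwi* family genes, and their epidermal descendants pass through a *prog*-expressing and then an *AGAT*-expressing stage.

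The libraries were alike in summed normalized counts and in the share of ribosomal RNA. The deposited counts summed to 55.0 to 55.3 M (M, 1000000 counts) per library at 24 HPA and to 54.2 to 58.5 M at 6 HPA, after scaling by the authors, so these sums are not read depths. Named ribosomal RNA held 11.9% to 12.1% of the total at 24 HPA and 11.9% to 12.6% at 6 HPA (two-sided exact permutation p = 0.7). Fewer transcripts reached 0.2 CPM in each library at 24 HPA (29198 to 29352) than in any library at 6 HPA (30216 to 33075), with an exact permutation p of 0.1, the smallest value that 3 against 3 libraries can give. The 6 HPA replicate 2 library stood apart. It lay over 2-fold above both other 6 HPA libraries in 104 transcripts, among them the anterior genes *ndk*, *ndk-4* and *wnt2-1*, whereas this count was 1 to 22 for each of the other 5 libraries. Genes of the tail (*wntP-2*, *Fzd-d*, *wnt11-1* and *sp5*) were detected in all 6 libraries, with summed levels of 157, 177 and 164 CPM at 24 HPA and 183, 192 and 189 CPM at 6 HPA (exact permutation p = 0.1). The authors scaled the tables of the 2 times separately, and time cannot be told apart from table or from any difference in library preparation between the times. In RNA of whole fragments, more cells of a type and more RNA per cell cannot be told apart.

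Of 30717 transcripts tested with limma, 1802 (5.87%) were higher and 1717 (5.59%) lower at 24 HPA at an adjusted p under 0.05, which together is 11.5%. Most changes were small, with a median absolute log2 fold change of 0.36 among the called transcripts. A log2 fold change of at least 1 was reached by 110 transcripts that rose and 273 that fell. With a pseudocount of 0.5 CPM these were 73 and 40, and among transcripts averaging at least 1 CPM they were 58 and 71, so most of the excess of large falls was in transcripts of low level. Scaling by the median of ratios gave 2633 higher and 1121 lower, and the values as deposited gave 1129 and 1961. Gene names are part of the ID for 251 of the tested transcripts, with 62 higher and 32 lower. Of these, 31 and 15 were called in every one of up to 17 alternatives run on them, and none of the 94 changed sign with the scaling.

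**Figure D1:**
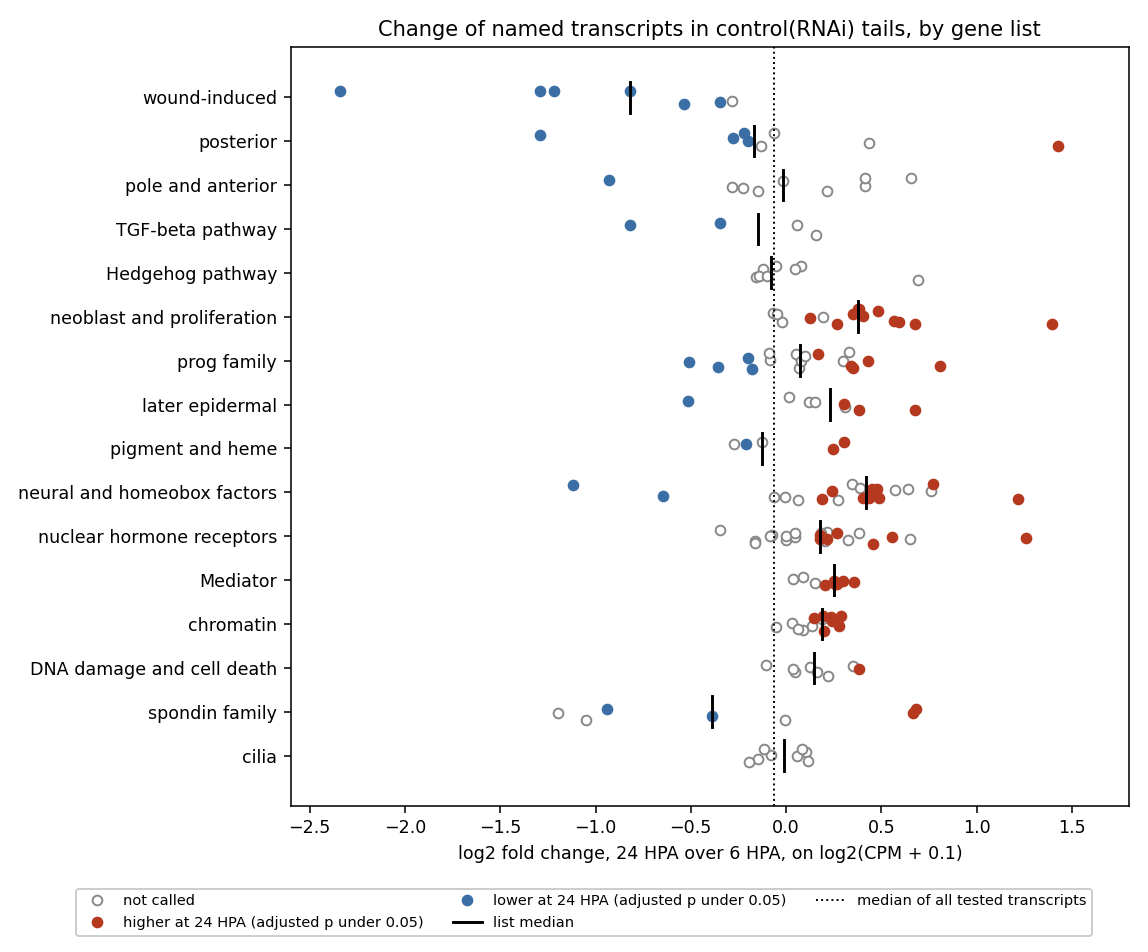
Log2 fold change (24 HPA over 6 HPA, horizontal axis) of each tested member of 16 lists of named genes, one row per list, with filled red points for members higher at 24 HPA, filled blue points for members lower, open points for those not called, short bars for list medians and a dotted line for the median of all tested transcripts (−0.06). The wound-induced genes lie left of the line and most neoblast, Mediator and chromatin genes lie right of it.

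Most of the wound-induced genes that the IDs name were lower at 24 HPA than at 6 HPA. Of these 7 genes, 6 fell and none rose, and the median log2 fold change was −0.82, against −0.06 over all tested transcripts. Called lower were 5.59% of all tested transcripts and 32 of the 251 named ones. The list drawn up also held *fos-1*, *jun-1*, *plasminogen-1*, *hadrian* and others. No transcript ID was matched to them, so they are not covered. The steepest fall was that of *runx-1*, which encodes a Runx-family transcription factor. It had 4.07, 4.67 and 4.95 CPM at 24 HPA, against 22.3, 24.8 and 23.3 CPM at 6 HPA. The groups lie far apart, and the log2 change was −2.34 (SE 0.087, adjusted p = 1.5e-07). *wnt1*, the Wnt ligand that is switched on at any planarian wound, had 1.59, 1.73 and 1.67 CPM at 24 HPA, against 3.60, 4.86 and 4.24 CPM at 6 HPA. Its fold change was −1.29 (SE 0.139, adjusted p = 0.000217), and each 24 HPA library lay below each 6 HPA library. *delta-1*, a Notch ligand gene, had 1.08, 0.835 and 0.846 CPM at 24 HPA, against 2.86, 1.48 and 2.72 CPM at 6 HPA. The 6 HPA replicate 2 library was the lowest of its group here, and the fall was −1.22 (SE 0.24, adjusted p = 0.00817) with it and −1.51 (adjusted p = 0.000332) without it.

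The Activin inhibitor gene *follistatin* had 14.7, 15.7 and 13.9 CPM at 24 HPA, against 24.9, 29.2 and 24.2 CPM at 6 HPA, a log2 change of −0.82 (SE 0.08, adjusted p = 0.00012). *activin*, the gene of a TGF-β family ligand that Follistatin binds, fell less, with 29.6, 26.6 and 30.7 CPM at 24 HPA, against 39.5, 34.2 and 37.1 CPM at 6 HPA (−0.35, SE 0.069, adjusted p = 0.00849). In both genes the groups were separate. A second Runx gene, *runx-2*, had 29.8, 40.5 and 29.3 CPM at 24 HPA, against 41.4, 50.6 and 51.3 CPM at 6 HPA. Its groups were separated by less than 1 CPM, and the fall (−0.53, SE 0.117, adjusted p = 0.0137) was not called in 3 of 17 alternatives, those without 6 HPA replicate 3 or without 24 HPA replicate 1 or 3. *notum*, which encodes an enzyme that inactivates Wnt ligands and is induced at anterior-facing wounds, was the one of the 7 that was not called. It had 3.86, 4.33 and 3.67 CPM at 24 HPA, against 4.35, 5.61 and 4.57 CPM at 6 HPA (−0.28, SE 0.122, adjusted p = 0.174). Its 24 HPA libraries also lay below its 6 HPA libraries, by a narrow margin. Of the other genes of the TGF-β list, *activin-receptor-1* (0.16, adjusted p = 0.0606) and *smad23* (0.06) were not called.

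**Figure D2:**
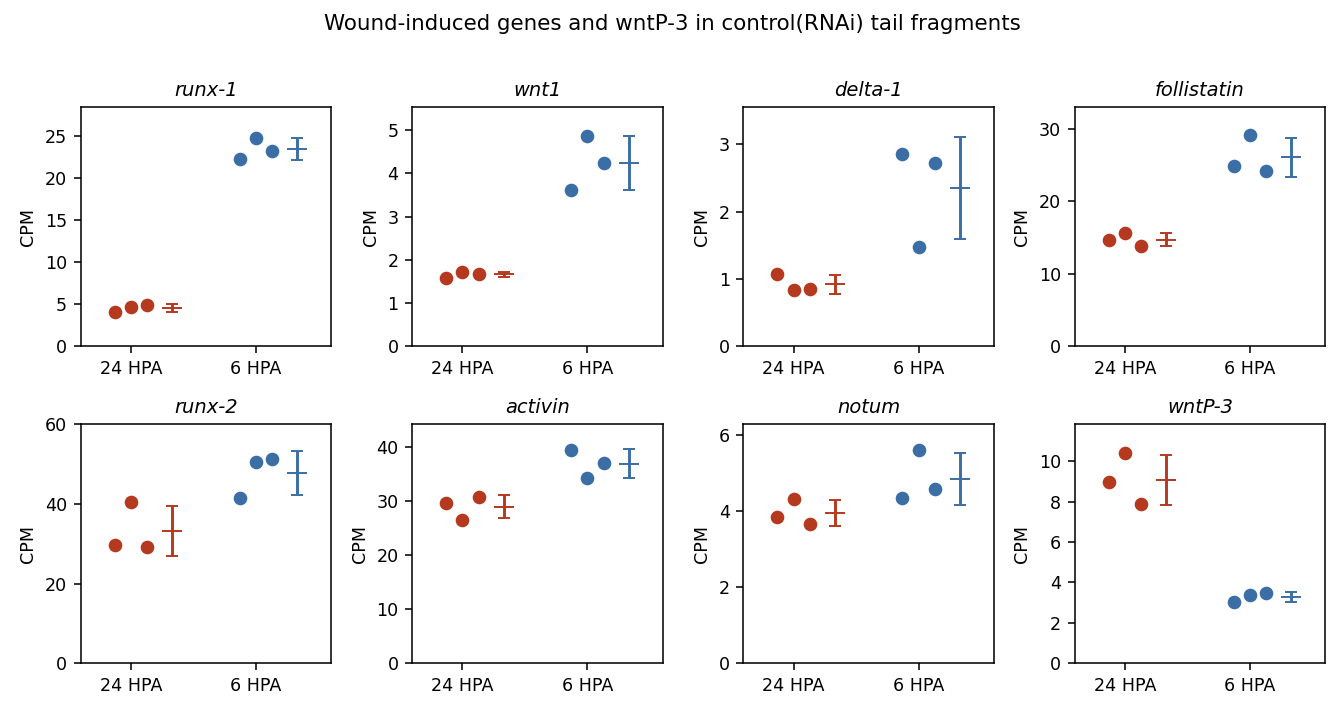
CPM (vertical axes, from 0) of the 7 wound-induced genes and of *wntP-3* in each *control(RNAi)* library at 24 HPA (red) and 6 HPA (blue), with the mean and SD of 3 libraries beside the points. *runx-1* stands at 4.07 to 4.95 CPM at 24 HPA and at 22.3 to 24.8 CPM at 6 HPA, whereas *wntP-3* is the one gene shown that is higher at 24 HPA.

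The time course of the controls places these falls. *runx-1* averaged 0.693 ± 0.049 CPM in intact animals (SD, n = 3), 1.33 ± 0.298 at 0.5 HPA, 23.5 ± 1.28 at 6 HPA, 4.56 ± 0.448 at 24 HPA, 4.51 ± 1.43 at 48 HPA and 2.62 ± 0.355 at 72 HPA. It was thus still above the intact level at each later time. *wnt1* averaged 0.866 ± 0.111 CPM in intact animals, 1.045 ± 0.24 at 0.5 HPA, 4.23 ± 0.626 at 6 HPA, 1.66 ± 0.067 at 24 HPA, 1.03 ± 0.30 at 48 HPA and 0.863 ± 0.246 at 72 HPA. At 72 HPA its level was that of intact animals within the spread. *notum* averaged 2.04 ± 0.336 CPM in intact animals, 1.66 ± 0.30 at 0.5 HPA, 4.85 ± 0.675 at 6 HPA, 3.95 ± 0.337 at 24 HPA, 3.23 ± 1.12 at 48 HPA and 5.94 ± 2.29 at 72 HPA. Intact animals hold all body regions and fragments only the tail, so these levels are a description without a test.

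Among genes of the posterior list, 8 were tested, of which 1 rose and 4 fell, with a median of −0.17. Calls over all tested transcripts were 5.87% higher and 5.59% lower, and over the 251 named ones 62 and 32. The gene that rose was *wntP-3*, a Wnt ligand gene. It had 8.95, 10.4 and 7.90 CPM at 24 HPA, against 3.01, 3.40 and 3.48 CPM at 6 HPA, a log2 change of 1.43 (SE 0.115, adjusted p = 3.46e-05), the largest rise of any named transcript. Every 24 HPA library was more than 2-fold above every 6 HPA library. In the control time course *wntP-3* averaged 3.08 CPM in intact animals, 3.61 at 0.5 HPA, 3.29 at 6 HPA, 9.08 at 24 HPA, 8.30 at 48 HPA and 6.13 at 72 HPA. The rise thus came after 6 HPA and its mean was lower again at 72 HPA.

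Besides *wnt1*, the posterior genes that fell did so by little. The Wnt receptor gene *Fzd-d* had 42.4, 49.8 and 46.3 CPM at 24 HPA, against 53.7, 55.2 and 59.0 CPM at 6 HPA (−0.28, SE 0.063, adjusted p = 0.0159). The posterior Wnt gene *wnt11-1* had 38.5, 44.5 and 38.1 CPM at 24 HPA, against 45.7, 48.2 and 46.9 CPM at 6 HPA (−0.22, adjusted p = 0.0435). The zinc finger gene *teashirt*, which promotes tail identity, had 39.4, 40.0 and 38.6 CPM at 24 HPA, against 44.3, 46.8 and 44.7 CPM at 6 HPA (−0.20, adjusted p = 0.0186). The groups were separate in each of the 3 genes, but none of the 3 calls held with scaling by the median of ratios, and they ended in 6, 9 and 6 of 17 alternatives. *sp5*, a transcription factor gene that Wnt signalling activates in the tail, had 30.3, 35.4 and 35.6 CPM at 24 HPA, against 35.1, 37.1 and 38.9 CPM at 6 HPA, and *wntP-2* had 45.7, 47.7 and 44.4 CPM, against 48.3, 51.4 and 44.6 CPM. Neither was called (−0.13 and −0.07). *wnt11-3* stayed under 0.7 CPM in all 6 libraries and was not called, and *Post1*, a posterior Hox gene, was at 0.114 to 0.266 CPM at 24 HPA and 0.112 to 0.197 CPM at 6 HPA, too low to be tested. *Fzd-d* averaged 14.3 CPM in intact animals, 53.1 at 0.5 HPA, 56.0 at 6 HPA, 46.2 at 24 HPA, 24.0 at 48 HPA and 18.9 at 72 HPA. Its fall between 6 and 24 HPA was thus smaller than the difference between 24 and 48 HPA.

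**Figure D3:**
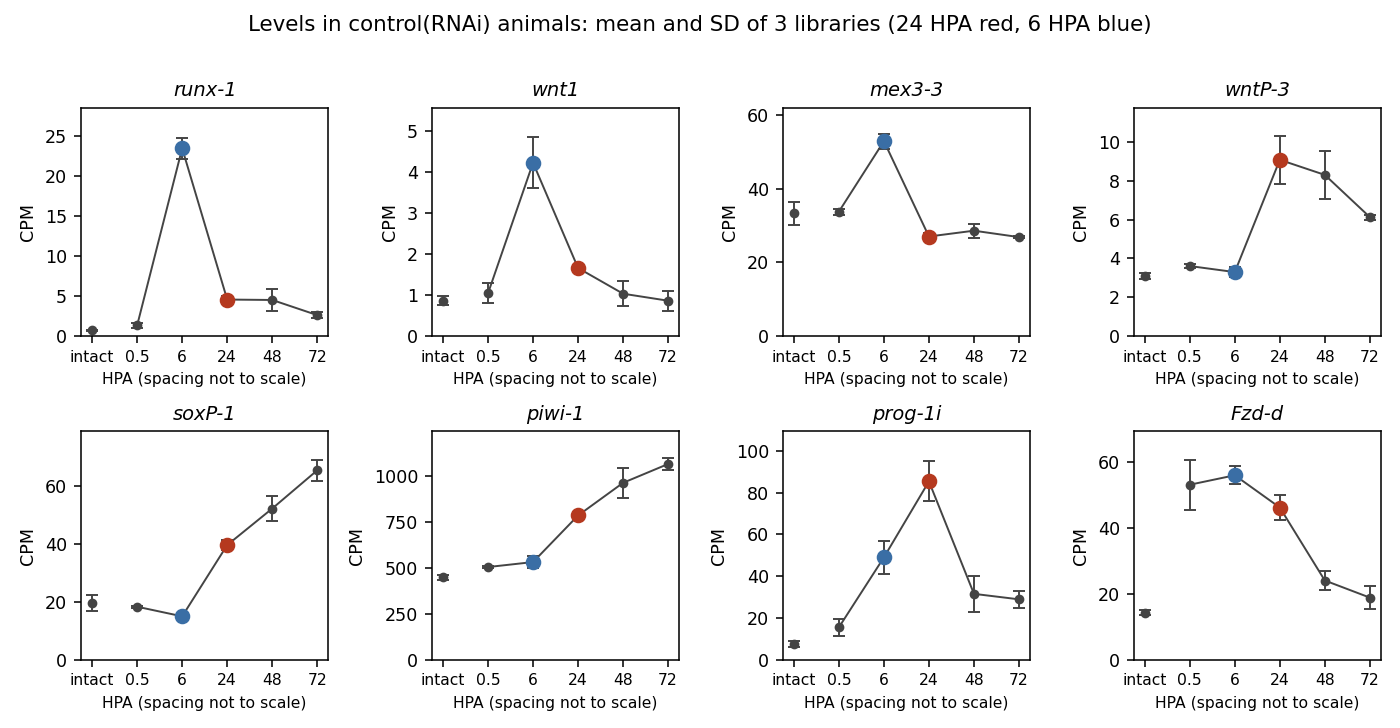
Mean and SD (3 libraries) of CPM of 8 genes in intact *control(RNAi)* animals and in tail fragments at 5 times, from 0.5 to 72 HPA, with 6 HPA in blue and 24 HPA in red. *runx-1*, *wnt1*, *mex3-3* and *Fzd-d* have their highest mean at 6 HPA, *wntP-3* and *prog-1i* at 24 HPA, and *soxP-1* and *piwi-1* at 72 HPA.

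What the anterior genes did depended on 1 library. With all 6 libraries, 1 of the 9 genes of the pole and anterior list fell and none rose. Of all tested transcripts 5.59% fell and 5.87% rose. Without the 6 HPA replicate 2 library, 4 of the list rose and 1 fell, beside 2101 and 1690 of 29417 tested transcripts. That library was picked out by its high values, those of *ndk*, *ndk-4* and *wnt2-1* among them. Leaving it out removes these same values, so the fits without it are no independent test of a rise. *ndk*, an FGF receptor-like gene of the head, had 4.56, 4.93 and 6.94 CPM at 24 HPA, against 2.32, 10.7 and 2.60 CPM at 6 HPA. Its log2 change was 0.41 (SE 0.438, adjusted p = 0.604) with the replicate 2 library and 1.103 (SE 0.166, adjusted p = 0.000947) without it. *wnt2-1*, a Wnt gene of the head, had 4.10, 2.94 and 4.26 CPM at 24 HPA, against 1.44, 5.01 and 1.73 CPM at 6 HPA, with 0.65 (adjusted p = 0.283) and, without replicate 2, 1.19 (adjusted p = 0.000988).

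The related genes *ndk-3* and *ndk-4* had the same shape. *ndk-3* had 12.8, 10.9 and 16.7 CPM at 24 HPA, against 8.31, 13.6 and 8.64 CPM at 6 HPA, and *ndk-4* had 2.74, 3.23 and 3.63 CPM, against 1.96, 5.55 and 1.84 CPM. In each of these 4 genes the replicate 2 library was the highest at 6 HPA, and in *ndk*, *ndk-4* and *wnt2-1* it lay above all 24 HPA libraries. The alternative values were 0.42 (adjusted p = 0.181) and 0.64 (adjusted p = 0.00723) for *ndk-3*, and 0.22 (adjusted p = 0.729) and 0.72 (adjusted p = 0.0106) for *ndk-4*, each first with and then without it. The FGF receptor-like gene *fgfrl-b*, outside this list, had another shape, with 37.6, 35.3 and 36.8 CPM at 24 HPA, against 29.8, 25.2 and 27.4 CPM at 6 HPA. Replicate 2 was its lowest library, and it rose with all 6 libraries (0.42, SE 0.065, adjusted p = 0.0023) and in all 17 alternatives. The summed level of the 4 head markers (*sfrp-1*, *ndk*, *wnt2-1* and *notum*) was 14.4, 14.7 and 17.3 CPM at 24 HPA, against 12.6, 26.5 and 12.4 CPM at 6 HPA (exact permutation p = 1), and all 4 were tested. The part of anterior tissue in the replicate 2 library was not tested.

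*sfrp-1*, a secreted Frizzled-related Wnt inhibitor gene of the head tip, went the other way. It had 1.84, 2.49 and 2.43 CPM at 24 HPA, against 4.44, 5.26 and 3.501 CPM at 6 HPA, a log2 change of −0.93 (SE 0.168, adjusted p = 0.00514) and of −0.79 (adjusted p = 0.00888) without replicate 2. It was not called in one fit over the 15 control tail libraries, and it averaged 13.1 CPM in intact animals, 4.30 at 0.5 HPA and 7.77 at 72 HPA. *FoxD1*, a transcription factor gene of the anterior pole, had 3.52, 3.25 and 2.50 CPM at 24 HPA, against 2.78, 3.61 and 2.93 CPM at 6 HPA, and was not called (−0.01). *sfrp2* and *sfrp3* were not called either (−0.15 and −0.23). The control level of *alx-3* itself was 13.5, 12.3 and 16.04 CPM at 24 HPA, against 13.4, 15.3 and 14.9 CPM at 6 HPA, a difference within the spread (−0.07, SE 0.096, adjusted p = 0.717). Over the 19 tested genes of the Wnt pathway, 1 rose (*wntP-3*) and 5 fell (*wnt1*, *sfrp-1*, *Fzd-d*, *wnt11-1* and *teashirt*), with a median of −0.13. For comparison, 62 and 32 of the 251 named transcripts rose and fell, and 5.87% and 5.59% of all tested ones. In this pathway, β-catenin-1 (*Bcat-1*, 0.11), *dvl-b* (0.06) and *APC* (0.26) were not called. None of the 8 Hedgehog pathway genes was called, and the values of largest size were 0.69 (*gli-2*, at most 0.399 CPM) and −0.16 (*Hh*, at most 0.372 CPM).

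**Figure D4:**
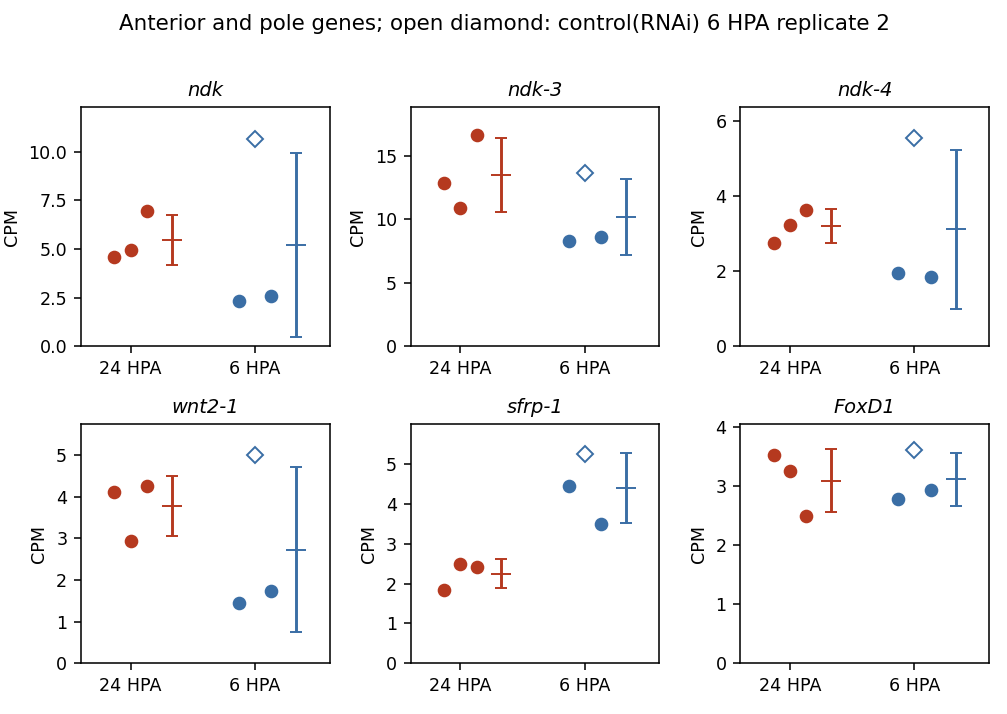
CPM (vertical axes, from 0) of 6 anterior and pole genes in each *control(RNAi)* library at 24 HPA (red) and 6 HPA (blue), with mean and SD of 3 libraries and with 6 HPA replicate 2 as an open diamond. For *ndk*, *ndk-4* and *wnt2-1* the diamond lies above all 24 HPA points while the other 6 HPA points lie below them.

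Most neoblast and proliferation genes rose. Of the 15 tested, 11 were higher and none lower at 24 HPA, with a median log2 fold change of 0.38. Over all tested transcripts 5.87% were called higher, and over named ones 62 of 251. In the neoblast list, 3 of the 4 not called had values below 0. The largest rise was that of *soxP-1*, a SoxP-family transcription factor gene expressed in neoblasts, which had 38.0, 41.3 and 39.4 CPM at 24 HPA, against 14.9, 14.7 and 15.3 CPM at 6 HPA. The replicates of each time differed by less than 4 CPM, and the log2 change was 1.396 (SE 0.056, adjusted p = 1.77e-07). *soxP-3*, which marks neoblasts of the epidermal lineage, had 33.8, 35.9 and 34.9 CPM at 24 HPA, against 20.2, 22.5 and 22.6 CPM at 6 HPA (0.68, SE 0.06, adjusted p = 6.13e-05). *bruli*, an RNA-binding protein gene that neoblasts need for self-renewal, had 164, 175 and 159 CPM at 24 HPA, against 114, 108 and 108 CPM at 6 HPA (0.59, SE 0.046, adjusted p = 2.17e-05). The groups did not overlap in any of the 3 genes.

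The *piwi* genes, whose Argonaute-family proteins bind small RNAs in neoblasts, rose by less. *piwi-1*, the standard neoblast marker, had 779, 807 and 767 CPM at 24 HPA, against 564, 497 and 532 CPM at 6 HPA, a fold change of 0.56 (SE 0.047, adjusted p = 4.05e-05). *piwi-2* had 1194, 1247 and 1218 CPM at 24 HPA, against 986, 922 and 966 CPM at 6 HPA (0.35, SE 0.038), and *piwi-3* had 822, 865 and 828 CPM, against 664, 629 and 644 CPM (0.38, SE 0.037). All 24 HPA libraries lay above all 6 HPA libraries in the 3 *piwi* genes. Genes of the dividing cell moved in the same direction. *CyclinB2*, which drives entry into mitosis, had 39.4, 42.9 and 39.1 CPM at 24 HPA, against 29.7, 27.9 and 29.1 CPM at 6 HPA (0.48, SE 0.055, adjusted p = 0.000307), and the replication clamp gene *PCNA* had 64.3, 67.3 and 61.8 CPM, against 49.2, 47.3 and 49.6 CPM (0.40, SE 0.048, adjusted p = 0.00042).

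The helicase gene *mcm2*, also of DNA replication, had 55.9, 57.5 and 53.1 CPM at 24 HPA, against 52.7, 44.8 and 48.2 CPM at 6 HPA, and was not called (0.20, adjusted p = 0.0668). *p53* (0.38, adjusted p = 0.000782), *soxP-5* (0.27, adjusted p = 0.0168) and *ago-2* (0.13, adjusted p = 0.0485) were called higher, and the calls of *soxP-5* and *ago-2* ended in 3 and 11 of 17 alternatives. *ago-1*, *ago-3* and *soxP-2* were not called, with values between −0.07 and −0.02 that turned positive with the median of ratios. The summed level of 8 neoblast markers was 3153, 3303 and 3170 CPM at 24 HPA, against 2471, 2296 and 2395 CPM at 6 HPA, a ratio of 1.34 (exact permutation p = 0.1). In the control time course *piwi-1* averaged 447 CPM in intact animals, 504 at 0.5 HPA, 531 at 6 HPA, 784 at 24 HPA, 962 at 48 HPA and 1064 at 72 HPA. *soxP-1* averaged 19.5, 18.3, 14.97, 39.6, 52.2 and 65.4 CPM in the same order. In both genes the mean at each time after 6 HPA lay above that of the time before it. Without the 6 HPA replicate 2 library 11 of the 15 genes were again higher and none lower.

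**Figure D5:**
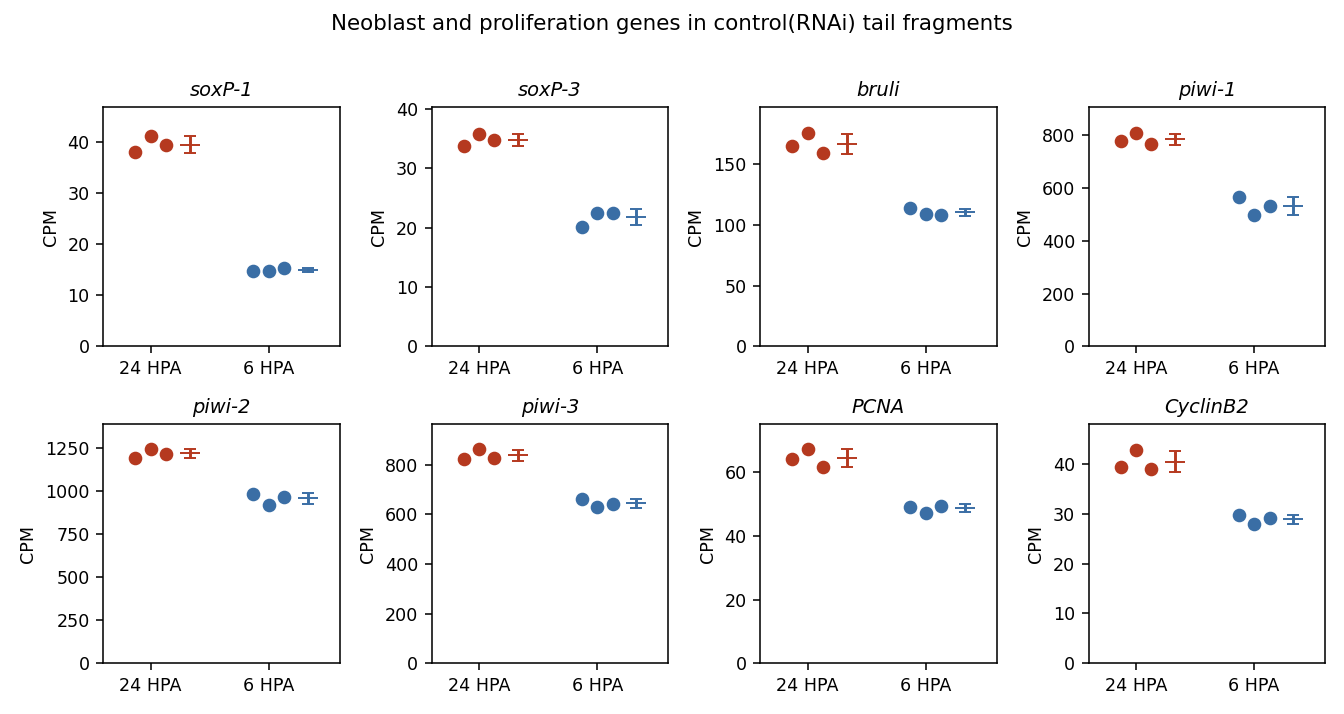
CPM (vertical axes, from 0) of 8 neoblast and proliferation genes in each *control(RNAi)* library at 24 HPA (red) and 6 HPA (blue), with mean and SD of 3 libraries. In each gene the 3 libraries at 24 HPA lie above the 3 at 6 HPA, from 38.0 to 41.3 against 14.7 to 15.3 CPM in *soxP-1*.

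Transcripts of the epidermal lineage did not move as one. Among 18 transcripts of the *prog* family, which marks early epidermal progeny, 5 rose and 4 fell, with a median of 0.07. Over all tested transcripts 5.87% rose and 5.59% fell, and of the 251 named ones 62 rose and 32 fell. *prog-1i* rose most, with 78.9, 81.0 and 96.4 CPM at 24 HPA, against 58.0, 45.3 and 43.8 CPM at 6 HPA (0.81, SE 0.102, adjusted p = 0.000624). It averaged 7.63 CPM in intact animals, 15.5 at 0.5 HPA, 49.0 at 6 HPA, 85.4 at 24 HPA, 31.6 at 48 HPA and 28.9 at 72 HPA, so its highest mean was at 24 HPA. *prog-1* had 159, 144 and 156 CPM at 24 HPA, against 118, 113 and 111 CPM at 6 HPA (0.43, SE 0.047, adjusted p = 0.000237). *prog1c* fell, with 6.39, 5.62 and 6.71 CPM at 24 HPA, against 9.25, 8.42 and 9.03 CPM at 6 HPA (−0.51, SE 0.091, adjusted p = 0.00488), and so did *prog-1f* (−0.36, SE 0.058, adjusted p = 0.00282), with 15.2 to 15.6 CPM, against 19.3 to 20.3 CPM. The groups were separate in all 4. How the authors' counting split reads between members of the family cannot be seen from the values.

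Of 8 later epidermal genes, 3 rose and 1 fell. Called higher and lower were 62 and 32 of the 251 named transcripts, and 5.87% and 5.59% of all tested ones. *AGAT3*, an enzyme gene of the later progeny, had 128, 138 and 131 CPM at 24 HPA, against 108, 109 and 106 CPM at 6 HPA (0.30, SE 0.042, adjusted p = 0.00106), while *AGAT1*, *AGAT2*, *AGAT4* and *AGAT5* were not called (0.01 to 0.31). *p53* and *soxP-3*, given above, are the other members that rose, and both are also neoblast genes. *vim-1*, an intermediate filament gene of later progeny, had 198, 191 and 165 CPM at 24 HPA, against 291, 232 and 270 CPM at 6 HPA (−0.52, SE 0.082, adjusted p = 0.00247). Its groups do not overlap. The summed level of 5 epidermal progeny markers was 891, 896 and 860 CPM at 24 HPA, against 902, 822 and 869 CPM at 6 HPA, a difference within the spread (exact permutation p = 0.7).

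Transcription factors of neurons and other homeobox genes were higher at 24 HPA in 10 of 22 tested, and lower in 2, with a median of 0.42, against 5.87% of all tested transcripts and 62 of 251 named ones called higher. With the values as deposited 6 were higher and 2 lower, and with the median of ratios 14 and 2. A further 12 members of this list were too low to be tested. The list does not hold *elav-2* and *castor*, which were both lower at 24 HPA. The limma values were −0.496 (adjusted p = 0.000306, kept in all 17 alternatives) for *elav-2* and −0.251 (adjusted p = 0.0152, lost in 3 of 17) for *castor*. *PAX6-2*, a paired-box gene, had 1.01, 1.08 and 1.29 CPM at 24 HPA, against 0.355, 0.45 and 0.482 CPM at 6 HPA (1.22, SE 0.214, adjusted p = 0.00438). *arx*, an aristaless-related homeobox gene, had 1.75, 2.43 and 2.39 CPM at 24 HPA, against 1.36, 1.24 and 1.09 CPM at 6 HPA (0.77, SE 0.176, adjusted p = 0.0166). The groups of both genes were separate, and the call of *arx* ended in 3 of 17 alternatives, those without 6 HPA replicate 3 or without 24 HPA replicate 2 or 3.

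Among the other members, *COE*, a transcription factor gene of neural progenitors, averaged 15.9 ± 0.177 CPM at 24 HPA and 12.1 ± 1.07 CPM at 6 HPA (SD, n = 3 each), with each 24 HPA library above each 6 HPA library (0.40, SE 0.075, adjusted p = 0.00603). *PAX5-1* (0.44, adjusted p = 0.000714) and the Distal-less gene *DLL-2* (0.47, adjusted p = 0.00296) rose as well. The members that fell were *hesl-1*, a gene of the hairy and enhancer of split family through which Notch signalling acts, and the Krüppel-like factor gene *klf* SmedASXL_070368. *hesl-1* had 0.407, 0.418 and 0.466 CPM at 24 HPA, against 1.401, 1.01 and 0.809 CPM at 6 HPA (−1.12, SE 0.236, adjusted p = 0.0112). *klf* had 8.69, 8.67 and 7.63 CPM at 24 HPA, against 12.9, 13.1 and 13.3 CPM at 6 HPA (−0.64, SE 0.076, adjusted p = 0.000396). Neither overlapped between the times. Another gene of the hairy and enhancer of split family, *hesl-3*, moved the other way, with 2.58, 2.64 and 3.00 CPM at 24 HPA, against 1.92, 1.82 and 2.04 CPM at 6 HPA (0.49, adjusted p = 0.0384, lost in 10 of 17 alternatives).

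Of 22 nuclear hormone receptors, which are ligand-dependent transcription factors, 7 rose and none fell, with a median of 0.18, against 5.87% of all tested transcripts and 62 of 251 named ones called higher. With the values as deposited 4 were higher and 1 lower, and with the median of ratios 8 and none. *nhr-2* had 0.778, 0.797 and 0.464 CPM at 24 HPA, against 0.187, 0.31 and 0.175 CPM at 6 HPA (1.26, SE 0.282, adjusted p = 0.0152), near the filter on low values. *nhr-20* had 23.7, 23.6 and 22.3 CPM at 24 HPA, against 16.2, 19.5 and 15.2 CPM at 6 HPA (0.45, SE 0.085, adjusted p = 0.00636). *nhr-17* (0.56, adjusted p = 0.0287) and *nhr-9* (0.27, adjusted p = 0.00831) rose too. All 4 had separate groups, and the calls of *nhr-2* and *nhr-17* ended in 3 of 16 and 5 of 17 alternatives, each of which left out a library.

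General regulators of transcription were called higher in part, by small values. Of 9 subunits of Mediator, the complex that links transcription factors to RNA polymerase, 6 rose and none fell, with all 9 values above 0 and a median of 0.25, against 5.87% of all tested transcripts and 62 of the 251 named ones called higher. *Med8* had 14.3, 14.8 and 14.3 CPM at 24 HPA, against 11.4, 11.5 and 10.97 CPM at 6 HPA (0.36, SE 0.064, adjusted p = 0.00479), and *Med14* (0.26), *Med23* (0.27) and *Med27* (0.30) were also called. The calls of *Med14*, *Med23* and *Med27* ended in 1, 3 and 7 of 17 alternatives. Of 13 chromatin genes, 7 rose and none fell, with a median of 0.19, beside the same shares of all and of named transcripts. *ISWI-2* (−0.05), which was not called, was the one member below 0. The histone deacetylase gene *HDAC1* had 442, 450 and 427 CPM at 24 HPA, against 364, 375 and 377 CPM at 6 HPA (0.24, SE 0.037, adjusted p = 0.00197). The heterochromatin protein gene *HP1-1* (0.24, adjusted p = 0.0027) and the remodeller genes *ISWI-1* (0.28, adjusted p = 0.00204) and *chd4* (0.29, adjusted p = 0.0101, lost in 1 of 17 alternatives) rose as well. Groups were separate in each gene given for these 2 lists. With the values as deposited, 4 Mediator and 4 chromatin genes were called higher, and with the median of ratios 6 and 8, with none lower under either.

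Of 8 tested genes of DNA damage and cell death, *p53* was the one called, and *ATM*, *ATR*, *DNAPK* and *Ku80* had values of 0.04 to 0.22. None of 8 ciliary genes was called (−0.20 to 0.12), among them *RPGRIP1L* (−0.20) and *IFT88* (−0.15). Of 5 pigment and heme genes, the porphyrin enzyme gene *PBGD-1* fell, with 334, 353 and 341 CPM at 24 HPA, against 371, 407 and 410 CPM at 6 HPA (−0.21, adjusted p = 0.013). The transcription factor genes *FoxF1* (0.30, adjusted p = 0.00274), with 41.8 to 45.2 CPM, against 34.7 to 35.6 CPM, and *ets-1* (0.25, adjusted p = 0.0499) rose. Over the 251 named transcripts 62 rose and 32 fell, and over all tested ones 5.87% and 5.59%. The *PBGD-1* call ended in 4 of 17 alternatives, one of them the median of ratios, and that of *ets-1* in 10. The gut transcription factor gene *NXK2.2* had 81.1, 83.1 and 82.1 CPM at 24 HPA, against 73.6, 62.4 and 73.1 CPM at 6 HPA (0.24, adjusted p = 0.0274), and ended in 5.

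Secreted and structural genes moved in both directions. *titin*, the gene of a giant elastic protein of muscle, had 10.95, 9.37 and 12.97 CPM at 24 HPA, against 28.3, 20.9 and 26.0 CPM at 6 HPA (−1.17, SE 0.125, adjusted p = 0.000204). It averaged 0.867 CPM in intact animals, 14.1 at 0.5 HPA, 25.0 at 6 HPA, 11.1 at 24 HPA, 8.74 at 48 HPA and 8.18 at 72 HPA, and was thus higher in tail fragments of every time than in intact animals. The *spondin* family of secreted matrix proteins was split, with 2 of 7 tested transcripts higher and 2 lower. Beside this, 62 of the 251 named transcripts were higher and 32 lower, and 5.87% and 5.59% of all tested ones. The transcript *spondin* SmedASXL_019263 had 134, 141 and 125 CPM at 24 HPA, against 90.0, 77.5 and 81.8 CPM at 6 HPA (0.68, SE 0.06, adjusted p = 6.21e-05), and SmedASXL_017661 had 751, 765 and 706 CPM, against 558, 388 and 470 CPM (0.67, SE 0.098, adjusted p = 0.00166). By contrast, SmedASXL_008552 had 55.3, 51.8 and 51.0 CPM at 24 HPA, against 69.5, 70.8 and 66.9 CPM at 6 HPA (−0.39, SE 0.048, adjusted p = 0.000542), and a transcript that the ID names smed009579 fell at under 1.2 CPM (−0.94, adjusted p = 0.025, lost in 6 of 16 alternatives). *VonWillebrandfactor*, named for a secreted adhesive protein, had 2.67, 2.35 and 2.34 CPM at 24 HPA, against 4.74, 6.16 and 3.02 CPM at 6 HPA (−0.84, adjusted p = 0.025, lost in 6 of 17).

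Also among the 10 largest falls of named transcripts were *mex3-3* and *CCD-like*. *mex3-3*, a gene of the Mex3 family of RNA-binding proteins, had 27.6, 25.9 and 27.7 CPM at 24 HPA, against 54.9, 53.1 and 50.9 CPM at 6 HPA (−0.97, SE 0.052, adjusted p = 1.47e-06). It averaged 33.3 CPM in intact animals, 33.8 at 0.5 HPA, 52.9 at 6 HPA, 27.0 at 24 HPA, 28.6 at 48 HPA and 26.9 at 72 HPA, so 6 HPA stood alone above the rest. *CCD-like* had 0.389, 1.01 and 0.781 CPM at 24 HPA, against 2.17, 1.37 and 1.93 CPM at 6 HPA (−1.27, adjusted p = 0.0166, lost in 3 of 17). Neither ribosomal RNA (3 transcripts) nor *mucin* (−1.78, adjusted p = 0.0629) was called, and of 2 *MyD88* genes, which act in innate immune signalling, *MyD88-2* was lower (−0.21, adjusted p = 0.0289, lost in 9 of 17).

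The largest changes of transcripts averaging at least 5 CPM at one of the times were in transcripts without a gene name. SmedASXL_009407 had 1.26, 1.41 and 1.12 CPM at 24 HPA, against 25.9, 29.1 and 27.4 CPM at 6 HPA (−4.35, SE 0.101, adjusted p = 2.83e-09). Its control means were 0.847 CPM in intact animals, 4.13 at 0.5 HPA, 27.5 at 6 HPA, 1.26 at 24 HPA, 2.05 at 48 HPA and 2.53 at 72 HPA, with the highest mean at 6 HPA as for *runx-1*. SmedASXL_018870 had 0.779, 0.493 and 0.464 CPM at 24 HPA, against 15.4, 7.99 and 9.30 CPM at 6 HPA (−3.99, SE 0.241, adjusted p = 3.33e-06).

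Of those that rose, SmedASXL_001801 had 25.1, 27.7 and 32.6 CPM at 24 HPA, against 2.36, 4.23 and 3.22 CPM at 6 HPA (3.11, SE 0.169, adjusted p = 1.47e-06). It averaged 0.484 CPM in intact animals, 1.25 at 0.5 HPA, 3.27 at 6 HPA, 28.5 at 24 HPA, 18.5 at 48 HPA and 25.1 at 72 HPA, and so stayed high. SmedASXL_072523 had 13.8, 27.1 and 14.98 CPM at 24 HPA, against 4.56, 0.528 and 4.66 CPM at 6 HPA (2.89, SE 0.613, adjusted p = 0.0115). At 6 HPA replicate 2 was the lowest by far, and the call ended without 24 HPA replicate 2 (2.59, adjusted p = 0.0567). Without 6 HPA replicate 2 the value was 1.92 (adjusted p = 7.91e-05).

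The same comparison in *alx-3(RNAi)* tail fragments shares no library with the controls. There *alx-3* stood at 2.88, 3.10 and 3.38 CPM at 24 HPA and at 4.83, 5.99 and 4.71 CPM at 6 HPA, below each of the 6 control libraries. Of 29151 transcripts tested there, 380 (1.3%) were higher and 402 (1.38%) lower at 24 HPA. Of 28211 transcripts tested in both comparisons, 229 were called higher in both, which is 60.4% of the 379 called higher in *alx-3(RNAi)* and 12.8% of the 1787 called higher in controls. Lower in both were 314, which is 78.5% of 400 and 19.1% of 1644, and 4 transcripts called lower in controls were called higher in *alx-3(RNAi)*. Among the genes described above, *runx-1* (−1.11, adjusted p = 0.0469), *delta-1* (−1.68, adjusted p = 0.0148), *follistatin* (−0.43, adjusted p = 0.0492) and *mex3-3* (−0.89, adjusted p = 0.00129) fell in *alx-3(RNAi)* fragments too, and *wntP-3* (0.82, adjusted p = 0.00897), *soxP-1* (0.56, adjusted p = 0.00578), *piwi-1* (0.33, adjusted p = 0.0109) and *bruli* (0.49, adjusted p = 0.00255) rose. Others did not pass the test there, among them *wnt1* (−1.03, adjusted p = 0.117), *titin* (−0.96, adjusted p = 0.179), *PCNA* (0.21, adjusted p = 0.0772) and *CyclinB2* (0.19, adjusted p = 0.154). By list, 5 of 15 neoblast and proliferation genes and 1 of 22 nuclear hormone receptors were called higher in *alx-3(RNAi)*, which made 782 calls in all. None of the 22 neural and homeobox factors, 9 Mediator and 13 chromatin genes was called higher there. No member of these lists was called for a difference of the time change between controls and *alx-3(RNAi)*. In *alx-3(RNAi)* the list medians were still above 0, at 0.238 (neural and homeobox), 0.108 (Mediator) and 0.062 (chromatin). *notum*, not called in controls, fell there (−0.75, adjusted p = 0.0214), and the 2 values were not shown to differ (difference 0.47, adjusted p = 0.566).

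A difference of the time change between controls and *alx-3(RNAi)* was called in 14 of 33454 transcripts (0.0418%), 2 of them named. *soxP-1* had 38.0, 41.3 and 39.4 CPM at 24 HPA and 14.9, 14.7 and 15.3 CPM at 6 HPA in controls, against 27.3, 30.5 and 26.4 CPM at 24 HPA and 18.9, 18.2 and 19.9 CPM at 6 HPA in *alx-3(RNAi)*. The rise was 1.396 in controls and 0.56 in *alx-3(RNAi)* libraries, a difference of 0.84 (SE 0.09, limma interaction, adjusted p = 0.00551). *runx-2* fell in controls (−0.53) and rose in *alx-3(RNAi)* (0.52, adjusted p = 0.0089), where it had 51.7, 48.0 and 45.8 CPM at 24 HPA and 37.3, 32.2 and 32.1 CPM at 6 HPA, a difference of −1.05 (SE 0.161, adjusted p = 0.0398). The *runx-2* call ended in 13 of 21 alternatives, with an adjusted p of up to 0.147. At an unadjusted p under 0.05 there were 2554 transcripts.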

How the data were processed

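RNA of *control(RNAi)* tail fragments was compared between 24 and 6 HPA (3 libraries each, grouped by the sample titles). Per the submitters' processing notes, reads were trimmed (Trimmomatic 0.39) and assigned to transcripts of the Smed_ASXL transcriptome (Salmon 1.4.0), and each time point was then normalized on its own (DESeq2 1.30.1). The deposited signal is the resulting normalized estimated count per transcript and library. The table header says RPKM, but row means equal the mean normalized count of the authors' results table in all 62798 and 59922 transcripts of the 6 and 24 HPA tables, so the values were not divided by length. The results tables also hold the authors' fold changes and p-values, which were not used. Low values lay near whole multiples of 1 estimated read in 78.05% (6 HPA replicate 2) to 100% (6 HPA replicate 3) of cases in the 6 libraries. Whole reads were thus given back in large part but not in every library. They were not rebuilt, and no count model was fitted.

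Each library was divided by its total (CPM). Of 57195 IDs in both tables, those at 0.2 CPM or more in at least 3 of 6 libraries were tested on log2(CPM + 0.1) with limma 3.58.1 in R 4.3.3 (lmFit, eBayes with trend, two-sided, Benjamini-Hochberg over all tested, threshold 0.05). IDs in 1 table only held at most 0.0308% of a library. The time by RNAi interaction was fitted in the same way over 12 libraries. Summed levels and shares were compared with exact two-sided permutation tests. The tests were tested on simulated data.

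Gene names were taken from the IDs (272 with *alx-3*). Members and gene lists were chosen with earlier results of these data known, and the DNA damage and chromatin lists were completed by function once the IDs were seen. *wnt11-6*, a head gene, was kept out of the posterior list. Named genes are all wound-induced, anterior and posterior genes, of the named transcripts called with separate groups, the 10 that rose most and the 10 that fell most, up to 4 called members of each list (or 2 not called), 4 unnamed transcripts, and *alx-3*. Other genes given were added after their values were seen. Alternatives are given in the closing section. No sequence is printed, since no reference was used here.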

Additional observations from a re-analysis of the deposited data

Results flagged for a closer look

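The change between 24 and 6 HPA differed with the RNAi treatment, by the interaction test itself, for 2 named transcripts. *soxP-1* rose by more in controls than in *alx-3(RNAi)*, with a log2 difference of 0.84 (adjusted p = 0.00551, and 0.00177 to 0.0259 over 21 alternatives). *runx-2* fell in controls and rose in *alx-3(RNAi)*, with a log2 difference of −1.05 (adjusted p = 0.0398, and 0.00946 to 0.147 over 21 alternatives, of which 13 lost the call).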

How the results depend on the processing

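Leaving out 1 library gave 1804 to 3791 called transcripts between 24 and 6 HPA, fewest without 24 HPA replicate 2, against 3519 with all 6. A required log2 fold change of at least 1 left 383. In *alx-3(RNAi)* libraries 782 were called. The replicate block gave 3088. Libraries of the same number did not deviate together (correlations −0.17 to 0.03), but 3 libraries per group cannot exclude a pairing by number. For the interaction, the count of 14 became 9 with the values as deposited, 9 with a log2 fold change of at least 1, 11 with the replicate block, and 1 to 20 without 1 library. Calls that were higher made up 51.2% in the analysis reported, 70.1% with the median of ratios and 36.5% with the values as deposited. The summed neoblast markers were higher at 24 HPA by 821.5 CPM, or by 929 CPM with ribosomal RNA left out of the total.

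Of the genes named by rule, these changed sign. In *alx-3(RNAi)* libraries the values were 0.519 for *runx-2*, 0.007 for *activin*, −0.368 for *ndk*, −0.587 for *ndk-4*, −0.085 for *wnt11-3*, 0.01 for *sp5*, 0.132 for *Hh* and −0.056 for *prog-1*. With the median of ratios *FoxD1* was 0.055, *wntP-2* 0.007 and *alx-3* 0.005, and with quantile normalization *FoxD1* was 0.088. Leaving out 1 library gave −0.113 to 0.127 for *FoxD1*, −0.058 to 0.715 for *ndk-4* and −0.17 to 0.02 for *alx-3*. Of other genes given, all not called, *ago-1*, *ago-3* and *soxP-2* turned positive with the median of ratios (*ago-1* also without 6 HPA replicate 2), *AGAT2* turned negative with the values as deposited and without 24 HPA replicate 2, and *Ku80* without 6 HPA replicate 1. *AGAT1* (−0.03), *AGAT2* (−0.14), *APC* (−0.22), *ago-1* (0.05), *ago-3* (0.06) and *soxP-2* (0.06) had the other sign in *alx-3(RNAi)* libraries. The cause was not tested. Read depth is not given here, and the counting error of low transcripts was not estimated.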
